A study of Homo sapiens with 6 samples.

Results

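The genes described here are 10 transcripts that are widely used as a readout of the transcriptional co-activator YAP: CYR61, CTGF, ANKRD1, AMOTL2, LATS2, FJX1, CRIM1, NT5E, FOXF2 and F3. They were taken by symbol from the deposited array table, in which each had 1 row, and they are 10 of the 25233 named genes. Their current symbols are those of the table except for CYR61, now CCN1, and CTGF, now CCN2. The RNA came from A375, an established human melanoma cell line with an activating BRAF mutation, grown in DMEM with serum to confluence and then split into new flasks for the treatment. One treatment was leflunomide at 25 µM for 3 days (3 arrays) and the other was its solvent DMSO for 3 days (3 arrays), both on the same cell line with no other genetic change stated. Leflunomide inhibits dihydroorotate dehydrogenase, a mitochondrial enzyme of pyrimidine synthesis. The comparison asks which transcripts differ between cells cultured with the drug and with solvent alone. Since separate cultures for the replicates are not stated, the spread that the p-values rest on could be technical. The number of arrays limits the precision.

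YAP and its paralogue TAZ, encoded by YAP1 and WWTR1, have no DNA-binding domain of their own and act on genes through the TEAD transcription factors. The Hippo kinase cascade, in which MST1 and MST2 (STK4 and STK3) activate LATS1 and LATS2, phosphorylates YAP and TAZ and keeps them out of the nucleus. In melanoma and other adherent cancer cells this output responds to cell density, cell shape and actin tension, and it is linked to invasive states. YAP is controlled largely through its phosphorylation and location, neither of which an RNA array measures. RNA was measured in bulk, so fewer cells of a state and less RNA per cell cannot be told apart.

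The arrays were unequal in quality. Leflunomide replicate 3 had a mean signal of 129, against 262 and 343 on the other leflunomide arrays and 318 to 371 on the DMSO arrays. Its normalized log2 values correlated with the other 5 arrays at 0.890 to 0.902 across genes, while those 5 correlated with each other at 0.988 to 0.997. Rows detected above background at a p under 0.05 numbered 11816 on it, against 13235 and 13739 on the other leflunomide arrays and 13793 to 14020 on the DMSO arrays. Changes are therefore given over all 6 arrays and without this array. The summed signals of 8 melanocyte lineage markers were 1560.3, 2343 and 666 with leflunomide and 2235, 2806 and 2463 with DMSO. SOX10 was detected on all 6 arrays, PMEL on all 3 DMSO arrays and 1 leflunomide array, and MLANA, TYR, DCT, TYRP1 and S100B on none. MITF was detected on 1 leflunomide array, with signals of 96.7, 119 and 50.3 with leflunomide and 120, 131 and 109 with DMSO. By detection p few of these markers bore out the melanoma label, and that p did not follow the signal in every row. PMEL was called lower, at −1.06 over all arrays and −1.32 without leflunomide replicate 3. Of 7 fibroblast markers, 4 were tested. Their summed signals over the list were 584, 704 and 341 with leflunomide and 613, 715 and 612 with DMSO. PDGFRB was called higher over all arrays (log2 fold change 0.90, limma adjusted p = 0.032) and was at 0.95 without leflunomide replicate 3. LUM and DCN were at −1.04 and −0.68 over all arrays and were called lower without that array, at −1.0003 and −0.86. FAP was tested and not called. Of the collagen genes, COL1A1 was above background on 2 leflunomide arrays and 0 DMSO arrays, and COL1A2 and COL3A1 on none. PTPRC and CD3E, of leukocytes, were detected on none, and CD68, a lysosomal gene used to mark macrophages, was at −0.53 over all arrays and was called at −0.70 without leflunomide replicate 3, the list's summed signals being 463 to 968 with leflunomide and 1305 to 1680.5 with DMSO. Of the epithelial markers EPCAM and KRT14, KRT14 alone was called, at −0.60 without that array (−0.24 with it), and the endothelial marker PECAM1 was not called. All summed signals include background, estimated at 36.8 per row on leflunomide replicate 3 and 56.5 to 59.6 on the other arrays. SOX10 made up most of the melanocyte sums and CD68 most of the immune sums, so the sums do not measure a cell type. The part of the marker genes of all these lists in the results below was not tested.

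TEAD factors bind DNA at a core that reads GGAATG. AP-1 factors, which occupy many of the same enhancers, bind mostly TGACTCA or TGAGTCA, searched for here with any middle base, as TGANTCA. A window of 300 bases, 250 before the start site and 50 after it, was available from RefSeq (build GRCh38.p14) for 8 of the 10 genes. CYR61 and CRIM1 had no window and were not searched. GGAATG was found on either strand in windows of CTGF, ANKRD1, AMOTL2, LATS2 and FOXF2, and in 14% of all 35116 windows in the table. AMOTL2 had it in 1 of its 2 windows, and the LATS2 match began at base 10 after the start site. CTGF had 3 matches and ANKRD1 had 2, and 2 or more were present in 1.37% of all windows. TGANTCA was found once for ANKRD1 (TGATTCA) and at 2 positions for F3 (TGAATCA and TGAGTCA), and in 7.71% of all windows. No match overlapped another. The 250 bases before the start are shown for the 2 genes with more than 1 TEAD core, for FOXF2, the gene called higher below, and for F3, which had TGANTCA matches and no TEAD core. They run 5′ to 3′ along the gene, with the GGAATG and TGANTCA matches of either strand in capitals.

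CTGF promoter, chr6:131951373-131951622, minus strand: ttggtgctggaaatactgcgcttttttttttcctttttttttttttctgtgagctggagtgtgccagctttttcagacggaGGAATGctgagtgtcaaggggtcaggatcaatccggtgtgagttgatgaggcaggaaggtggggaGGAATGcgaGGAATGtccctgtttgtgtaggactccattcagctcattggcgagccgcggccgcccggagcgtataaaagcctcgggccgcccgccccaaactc

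ANKRD1 promoter, chr10:90921088-90921337, minus strand: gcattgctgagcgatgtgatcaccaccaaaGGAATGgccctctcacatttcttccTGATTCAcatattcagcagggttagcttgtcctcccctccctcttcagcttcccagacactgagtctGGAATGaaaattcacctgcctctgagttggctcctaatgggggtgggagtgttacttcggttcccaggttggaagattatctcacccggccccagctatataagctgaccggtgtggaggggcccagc

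FOXF2 promoter, chr6:1389326-1389575, plus strand: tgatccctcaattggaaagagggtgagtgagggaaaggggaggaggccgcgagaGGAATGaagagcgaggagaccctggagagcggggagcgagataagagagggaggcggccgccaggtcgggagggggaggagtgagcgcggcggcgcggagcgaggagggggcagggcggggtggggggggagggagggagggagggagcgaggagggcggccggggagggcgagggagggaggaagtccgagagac

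F3 promoter, chr1:94541760-94542009, minus strand: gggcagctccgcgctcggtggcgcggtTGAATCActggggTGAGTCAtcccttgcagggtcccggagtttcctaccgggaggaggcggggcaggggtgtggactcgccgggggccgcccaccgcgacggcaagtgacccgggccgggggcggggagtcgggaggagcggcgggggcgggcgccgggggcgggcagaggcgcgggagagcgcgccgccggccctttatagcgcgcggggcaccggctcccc

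The GGAATG matches of CTGF began 169, 104 and 95 bases before the start site, and those of ANKRD1 220 and 128 bases before it. A match in these windows is a description of the letters and not evidence of binding.

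Over all 6 arrays no YAP target gene passed the threshold, and without leflunomide replicate 3 the group moved both ways. CYR61 was lowest relative to DMSO in both comparisons and was called lower when that array was left out. ANKRD1 lay in the same direction and did not pass. FOXF2 was called higher without that array, and CTGF, LATS2, FJX1, CRIM1, NT5E and F3 were not called in either comparison. Across the 12345 genes kept by the detection filter (a detection p under 0.05 on at least 3 of 6 arrays), limma called 1.07% over all 6 arrays (0.834% lower) and 19.3% without leflunomide replicate 3, at an adjusted p under 0.05. Of the 9 YAP target genes kept, 0 were called over all 6 arrays, with 2 at an unadjusted p under 0.05 in limma, both lower. Of all genes 16.9% passed that unadjusted level, 8.45% lower and 8.46% higher. Without that array 2 of 9 were called, 1 lower and 1 higher, a share near that of all genes, and 3 passed an unadjusted p under 0.05, where 32.9% of all genes did. The direction of the calls depended on the scaling. Of the 2378 genes called without leflunomide replicate 3, 1151 were higher and 1227 lower, while scaling the same 5 arrays to a common median called 31 higher and 706 lower and put the median of all genes at −0.19. Values under median scaling are therefore also given relative to all genes, and a call lost or kept there partly follows that shift.

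**Figure D1:**
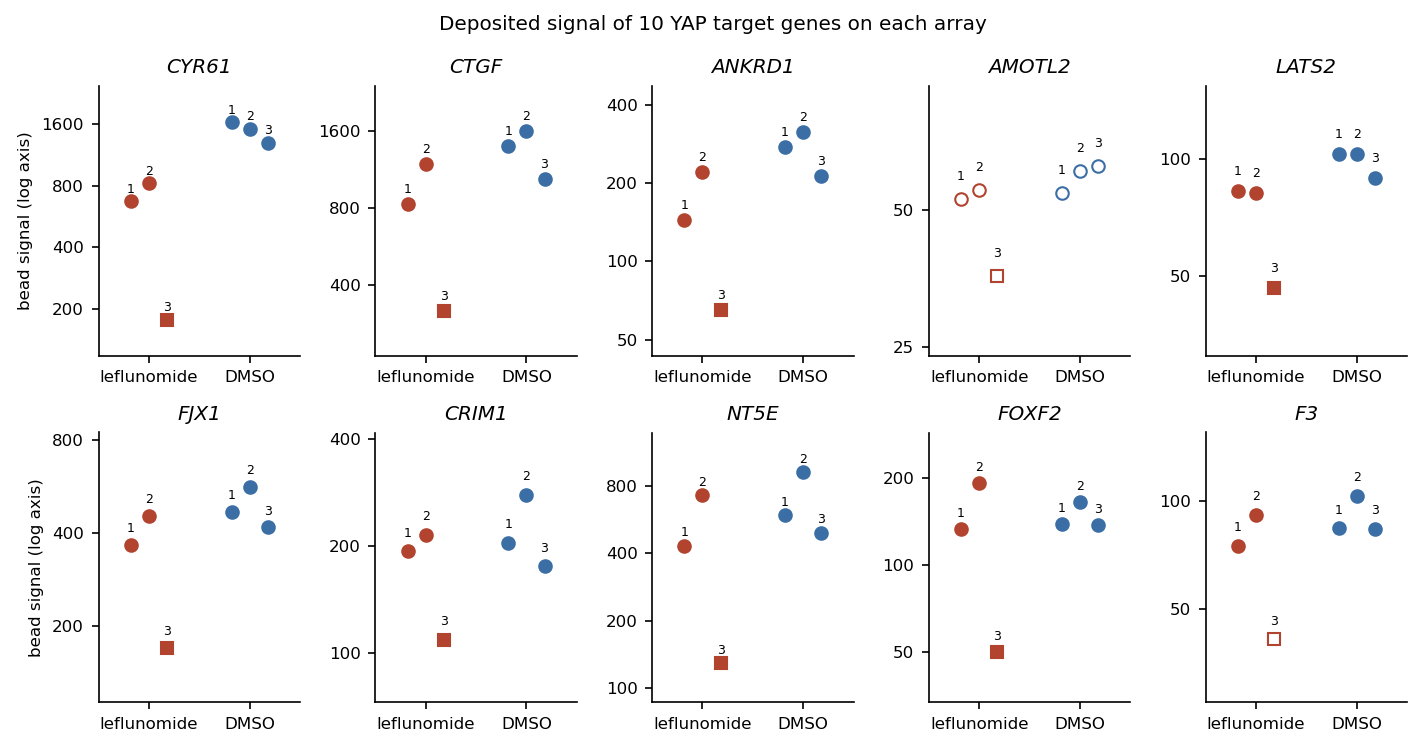
Deposited bead signal (log axis, a scale of its own in each panel) of the 10 YAP target genes on the 3 leflunomide arrays, left, and the 3 DMSO arrays, right, with numbers giving the replicate and the square marking leflunomide replicate 3. Filled symbols have a detection p under 0.05. CYR61 is at 176 to 822 with leflunomide and 1298 to 1640.2 with DMSO, and leflunomide replicate 3 is the dimmest array for all 10 genes.

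CYR61 (CCN1), a secreted integrin-binding protein and an immediate early gene, had signals of 672, 822 and 176 on leflunomide replicates 1, 2 and 3, against 1640.2, 1524 and 1298 on the DMSO arrays. All had a detection p of 0, brighter than every negative control bead, and the groups did not overlap. After normalization the log2 values were 9.48, 9.22 and 8.67 with leflunomide and 10.32, 9.96 and 10.00 with DMSO. CYR61 was 1.96-fold lower over all 6 arrays (log2 fold change −0.97 ± 0.23 SE, 95% interval −1.53 to −0.41, limma adjusted p = 0.12) and did not pass the threshold. Without leflunomide replicate 3 it fell 1.67-fold (−0.74 ± 0.13 SE, limma adjusted p = 0.0019), where 9.94% of all genes were called lower. Under each of the 18 alternative settings the value was below 0, between −1.70 and −0.70, and 4 of the 18 called it (limma adjusted p 0.0016 to 0.42). All 4 left out leflunomide replicate 3 or gave it a weight of 0.068. No setting that kept that array at full weight called CYR61.

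CTGF (CCN2), the close relative of CYR61 that promotes matrix production, had signals of 830.3, 1191 and 315 with leflunomide and 1404, 1604 and 1043 with DMSO. Its detection p was 0 on all arrays. The normalized values were 9.82, 9.79 and 9.60 with leflunomide and 10.09, 10.03 and 9.68 with DMSO, and leflunomide replicates 1 and 2 lay above DMSO replicate 3. The difference of −0.20 ± 0.15 (SE) had a 95% interval of −0.55 to 0.16 and was not called (limma adjusted p = 0.53). Without leflunomide replicate 3 it was −0.13, with an interval of −0.41 to 0.14. The row of CTGF could not be matched to a single probe, and it may join several.

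Of the other CCN genes in the table, NOV (CCN3) had signals of 305, 447 and 109 with leflunomide and 502, 671 and 466 with DMSO. NOV was at −0.44 ± 0.16 (SE, limma adjusted p = 0.23) over all arrays and −0.30 without leflunomide replicate 3 (limma adjusted p = 0.068). WISP3 (CCN6) was at −0.24 and −0.069 in the same comparisons and was not called. WISP1 and WISP2 were not above background on any array. Within each array CYR61 could be set against CTGF without scaling between arrays, using background-corrected signals. The ratio of CYR61 to CTGF was 0.799, 0.678 and 0.526 with leflunomide and 1.17, 0.949 and 1.26 with DMSO. The level of such a ratio compares 2 probes and is not read here. The groups did not overlap, and the log2 ratio differed by −0.76 with all arrays and −0.60 without leflunomide replicate 3 (with all arrays, exact two-sided permutation p = 0.1, the smallest that 3 arrays against 3 allow, and 0.11 adjusted over the 8 ratios examined). The same ratio of CYR61 to each of the other kept genes separated the groups, lower with leflunomide, for 7 of 8 YAP target genes, and for 90.4% of all other genes tested (93.5% without leflunomide replicate 3). The exception was ANKRD1. The share was therefore near that of genes in general, and CYR61 was chosen for these ratios after its values were seen.

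ANKRD1, an ankyrin repeat protein that binds titin in muscle and is induced by stretch, had signals of 145, 220.3 and 65.0 with leflunomide and 274, 315 and 214 with DMSO. On leflunomide replicate 3 its detection p was 0.0026, and on the other arrays it was 0. The raw signals of the groups overlapped, since leflunomide replicate 2 lay above DMSO replicate 3. The normalized values did not overlap, at 6.86, 7.14 and 6.65 with leflunomide and 7.58, 7.48 and 7.15 with DMSO, the highest leflunomide array lying just under the lowest DMSO array. ANKRD1 was 1.43-fold lower (log2 fold change −0.52 ± 0.18 SE, 95% interval −0.95 to −0.082, limma adjusted p = 0.23) and was not called. Without leflunomide replicate 3 it was at −0.41 ± 0.14 (SE, limma adjusted p = 0.056). With arrays weighted by quality, where leflunomide replicate 3 had a weight of 0.068 and leflunomide replicate 1 the highest, 2.84, it was called (−0.47, limma adjusted p = 0.033). CYR61 and ANKRD1 were the 2 of 9 whose normalized groups were separated with leflunomide lower, and 15.3% of all genes were, with 29.8% separated in either direction. Leaving out leflunomide replicate 3, the same 2 genes were separated lower and FOXF2 higher, where 23.7% of all genes were separated lower and 48.4% in either direction.

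**Figure D2:**
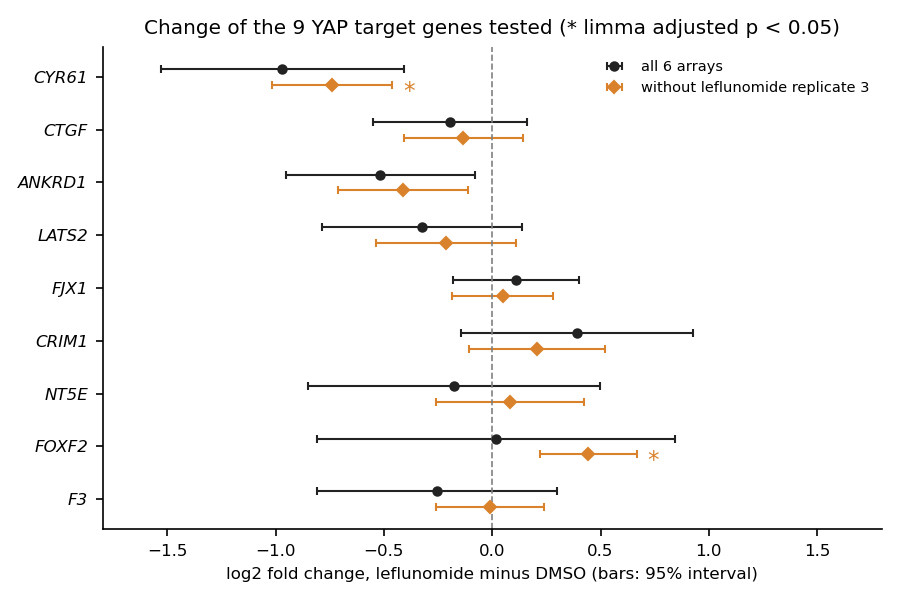
Log2 fold change of the 9 YAP target genes tested, leflunomide minus DMSO, over all 6 arrays (circles) and without leflunomide replicate 3 (diamonds), with 95% intervals from limma and an asterisk at an adjusted p under 0.05. CTGF, LATS2, F3, CYR61 and ANKRD1 lie below 0 in both, the last 2 with their whole intervals. FOXF2 is at 0.017 with all arrays and at 0.44 without that array.

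LATS2, the kinase that phosphorylates YAP and is itself induced by it, read close to background. Its signals were 82.6, 81.8 and 46.5 with leflunomide and 103.3, 103.1 and 89.5 with DMSO, and the raw groups did not overlap. The detection p lay between 0.0040 and 0.043 on all 6 arrays. LATS2 was at −0.32 ± 0.19 (SE, 95% interval −0.79 to 0.14, limma adjusted p = 0.45) after normalization, where leflunomide replicate 1 lay above 2 DMSO arrays, and at −0.21 without leflunomide replicate 3. AMOTL2, an angiomotin family scaffold that retains YAP at junctions and in the cytoplasm, was not above background on any array. Its signals were 53.1, 55.4 and 35.9 with leflunomide and 54.7, 61.0 and 62.5 with DMSO, with detection p-values between 0.18 and 0.77. It was left out of the fit, and no fold is given for it. The probe behind that row read no signal above the negative controls, which does not show that the transcript was missing.

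NT5E, the ecto-5′-nucleotidase CD73 that turns extracellular AMP into adenosine, had signals of 433, 730.4 and 129 with leflunomide and 590.4, 925 and 495 with DMSO. The groups overlapped, since leflunomide replicate 2 lay above DMSO replicates 1 and 3. NT5E was at −0.18 ± 0.28 (SE, 95% interval −0.85 to 0.50, limma adjusted p = 0.75), and the sign turned without leflunomide replicate 3, at 0.082 (95% interval −0.26 to 0.43). F3, tissue factor, the cell surface initiator of blood coagulation, had signals of 74.9, 91.7 and 41.2 with leflunomide and 84.1, 103.8 and 83.9 with DMSO. The row of F3 could not be matched to a single probe, and its detection p was 0.11 on leflunomide replicate 3 and under 0.05 on the other 5 arrays. F3 was at −0.26 ± 0.23 (SE, limma adjusted p = 0.58) over all arrays and −0.010 without leflunomide replicate 3 (95% interval −0.26 to 0.24).

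FJX1, the human relative of the Drosophila Golgi kinase Four-jointed, which modifies Fat and Dachsous cadherins in the fly, had signals of 365, 456 and 169 with leflunomide and 469, 565 and 417 with DMSO. Its difference of 0.11 ± 0.12 (SE) had a 95% interval of −0.18 to 0.40 and was not called (limma adjusted p = 0.64), nor was that of 0.049 without leflunomide replicate 3. The groups overlapped. CRIM1, a transmembrane protein with cysteine-rich repeats that binds bone morphogenetic proteins, had signals of 193, 214 and 109 with leflunomide and 204, 278 and 175 with DMSO. It was at 0.39 ± 0.22 (SE, 95% interval −0.15 to 0.93, limma adjusted p = 0.43), and at 0.21 without leflunomide replicate 3. With all arrays scaled to a common median FJX1 and CRIM1 were at −0.63 and −0.32, beside a median of −0.53 over all genes. Relative to that median FJX1 was at −0.10 and CRIM1 at 0.21.

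FOXF2, a forkhead transcription factor of mesenchyme, had signals of 134, 192 and 50.3 with leflunomide and 138, 166 and 138 with DMSO. The detection p was 0.020 on leflunomide replicate 3 and at most 0.0013 elsewhere. After normalization it was at 6.70 and 6.89 on leflunomide replicates 1 and 2, at 5.58 on replicate 3, and at 6.37, 6.40 and 6.34 with DMSO, so that replicates of the same treatment lay on either side of DMSO. The difference was 0.017 ± 0.34 (SE, limma adjusted p = 0.98) over all arrays. On the 5 arrays without leflunomide replicate 3, FOXF2 rose 1.36-fold (0.44 ± 0.10 SE, limma adjusted p = 0.010), where 9.32% of all genes were called higher. That call was lost with median scaling of the same 5 arrays, at 0.20 (limma adjusted p = 0.68), which is 0.39 relative to all genes.

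**Figure D3:**
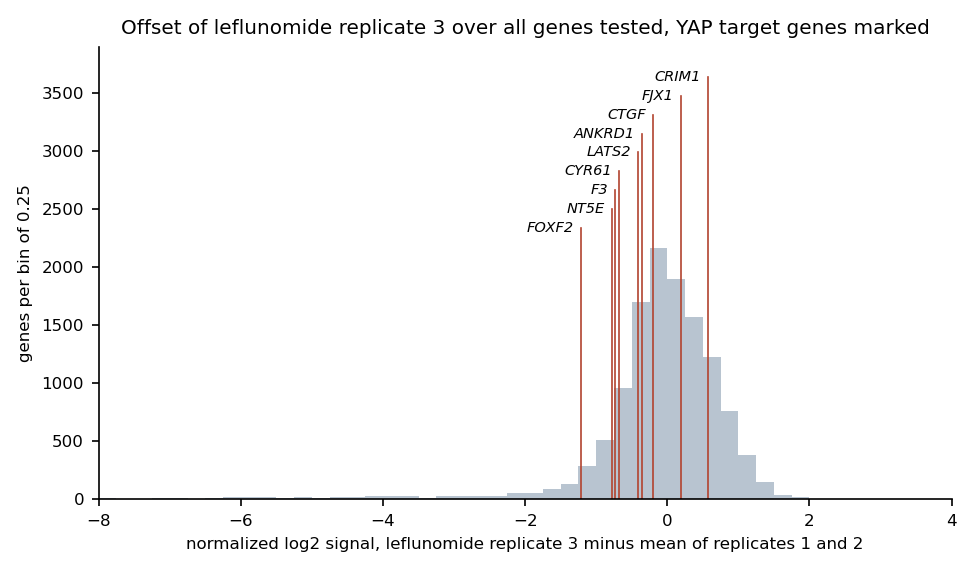
Number of genes (bins of 0.25 log2 units, 12345 genes) by the normalized log2 signal of leflunomide replicate 3 minus the mean of leflunomide replicates 1 and 2, with vertical lines at the 9 YAP target genes tested. Of the 9, FOXF2 lies lowest, at −1.21, and CRIM1 highest, at 0.57. Values beyond 8 log2 units are drawn in the end bins.

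The offset of leflunomide replicate 3 from its companions ran from −1.21 for FOXF2 to 0.57 for CRIM1, while its quartiles over all genes were −0.39 and 0.41. FOXF2 lay in the lowest 5.91% of genes and NT5E, F3 and CYR61 in the lowest 11.5%, 12.4% and 13.7%. Of the 12345 genes 204 lay more than 4 log2 units below, and none of the 9 did. The 16 units added to each signal before the log2 scale set a floor. Dim genes such as LATS2 and F3 could not fall that far, so nothing is concluded from their absence there. The median over the 9 genes was −0.20 with all arrays and −0.010 without that array, beside −0.0020 and 0.0058 over all genes tested. Per array, the median distance of the 9 from the DMSO mean was −0.047 and −0.052 on leflunomide replicates 1 and 2 and −0.69 on replicate 3. Over all 6 arrays 6 of 9 lay below 0, and without replicate 3 it was 5 of 9, where 50.2% and 48.9% of all genes did.

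Across the 6 arrays the normalized CYR61 values followed those of LATS2 (r = 0.89) and ANKRD1 (r = 0.87), and CRIM1 and FJX1 followed each other (r = 0.95), as NT5E and F3 did (r = 0.94). These coefficients are descriptions over 6 arrays that share 2 treatments and an array that stands apart. By the same measure the genes most like CYR61 were the zinc finger gene ZNF225 (r = 0.998), the actin-bundling protein gene LCP1 (r = 0.997) and Gcom1 (r = 0.996). Among those most like CTGF were C18orf54 (r = 0.980) and DEFB103A (r = 0.980).

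The effectors themselves were not called over all arrays. YAP1 had signals of 769, 1118 and 143 with leflunomide and 702, 1271 and 560 with DMSO, and was at 0.068 ± 0.44 (SE, limma adjusted p = 0.94) over all arrays and 0.53 ± 0.20 (SE, limma adjusted p = 0.083) without leflunomide replicate 3. WWTR1, which encodes TAZ, had signals of 319.7, 453 and 136 with leflunomide and 317, 423 and 276 with DMSO. It was at 0.50 ± 0.13 (SE, limma adjusted p = 0.14), and without leflunomide replicate 3 it rose 1.44-fold (limma adjusted p = 0.0088). With median scaling of those 5 arrays WWTR1 was at 0.25 (0.44 relative to all genes) and was not called (limma adjusted p = 0.59), and with all arrays so scaled it was at −0.23 (0.29 relative to all genes). TEAD2 was at −0.26 and TEAD4 at 0.32 over all arrays, and at −0.15 and 0.19 without leflunomide replicate 3, neither called, and TEAD1 and TEAD3 were not above background on any array. Of the 10 genes for YAP, TAZ, TEAD and VGLL proteins, 5 were tested and 0 were called over all arrays. In limma 1 passed an unadjusted p under 0.05, where 16.9% of all genes did. Without leflunomide replicate 3 WWTR1 alone of the 5 was called, where 19.3% of all genes were.

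Of 25 Hippo kinases and regulators, 16 were tested and 0 were called over all arrays. In limma 2 passed an unadjusted p under 0.05, where 16.9% of all genes did. The median was −0.16, or −0.018 without leflunomide replicate 3. In the comparison without leflunomide replicate 3, 1 rose and 1 fell, where 9.32% and 9.94% of all genes did. The phosphatase gene PTPN14, whose product binds YAP, was at 0.53 (limma adjusted p = 0.011) there and 0.61 over all arrays, and RASSF1, a scaffold of the MST kinases, was at −0.33 (limma adjusted p = 0.034) and −0.28. Median scaling of the 5 arrays put them at 0.48 and −0.38 relative to all genes, with neither called (limma adjusted p = 0.53 and 0.11). The MST kinase genes STK4 and STK3 had signals of 13.9 and 28.5 on leflunomide replicate 3, against 1733 and 952 on leflunomide replicate 1 and 2666 to 3183 and 1169 to 1387 on the DMSO arrays. They were at −2.44 and −1.72 with that array and at −0.28 and 0.15 without it. WWC1, the scaffold KIBRA, was likewise at −1.19 with it and −0.27 without it. TAOK2, a kinase that acts on the MST kinases, was at −0.29 and −0.36. None of these 4 was called. LATS1 was not above background on any array, AMOT was at 0.35 with that array and 0.18 without it, AMOTL1 was at 0.27 and 0.072, and neither was called.

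**Figure D4:**
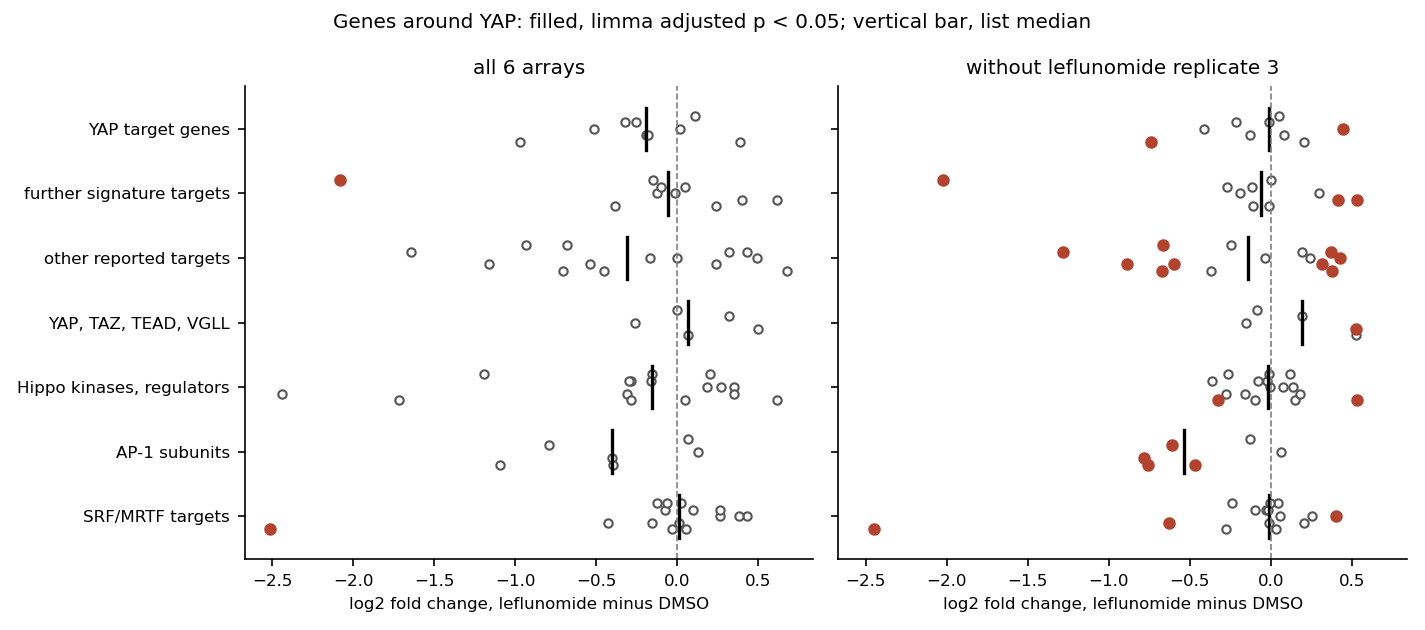
Log2 fold change, leflunomide minus DMSO, of the tested genes of 7 lists around YAP over all 6 arrays (left) and without leflunomide replicate 3 (right). Filled circles passed a limma adjusted p of 0.05 and vertical bars are list medians. Of the 7 lists drawn, the AP-1 subunits have the lowest median in both panels, at −0.40 and −0.54, and the lowest points on the left are ACTA2, STK4 and GADD45A.

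Other published YAP and TAZ targets also went both ways. Of 12 further genes of the signature from which the 10 come, 10 were tested. Over all arrays 1 fell, where 0.834% of all genes did, and 9 were not called. The one that fell was the stress gene GADD45A, which is also a p53 target (log2 fold change −2.08 ± 0.16 SE, limma adjusted p = 0.010). When leflunomide replicate 3 was left out GADD45A fell (−2.02) and 2 rose, PTPN14 and ASAP1, an ArfGAP of focal adhesions, at 0.53 and 0.41 (0.61 and 0.40 over all arrays). In that comparison 9.94% of all genes were called lower and 9.32% higher. ASAP1 was not called with median scaling of the same arrays (limma adjusted p = 0.80), where it was at 0.33 relative to all genes. MYOF, a membrane repair ferlin, was at −0.38 over all arrays and −0.11 without that array, and AXL, a receptor kinase, at −0.12 and −0.19. ARHGEF17 was at −0.013 and 0.29.

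Of 15 other reported targets, 14 were tested and 0 were called over all arrays, with 4 lower and 2 higher at an unadjusted p under 0.05 in limma, where 8.45% and 8.46% of all genes were. Without leflunomide replicate 3, 5 fell and 4 rose, where 9.94% and 9.32% of all genes did. DKK1, a secreted Wnt antagonist, had signals of 894, 1381 and 244 with leflunomide and 2516, 3072 and 1886 with DMSO, and was at −1.16 ± 0.25 (SE, limma adjusted p = 0.11) over all arrays and −0.89 without replicate 3 (limma adjusted p = 0.00066). The cyclin gene CCND1, the receptor gene TNFRSF12A and EDN1, the endothelin gene, also fell in that comparison, at −0.67, −0.66 and −0.60, and were at −0.45, −0.68 and −0.54 over all arrays. With median scaling of the 5 arrays DKK1 and these 3 were at −0.94, −0.59, −0.71 and −0.53 relative to all genes. EDN1 read close to background, with signals of 67.7, 69.2 and 45.2 with leflunomide and 85.8, 96.1 and 90.1 with DMSO. Its detection p was under 0.05 on 1 leflunomide array and all 3 DMSO arrays, which limits its fold change. The 4 that rose, CDC42EP3, FSTL1, BIRC5 and CAV1, were at 0.31 to 0.43 and, over all arrays, at 0.0012 to 0.68. With that scaling they were at 0.29 to 0.39 relative to all genes and were not called, while the 4 lower genes were. DLC1, with a signal of 24.9 on leflunomide replicate 3, was at −0.93 over all arrays and −0.25 without it. THBS1, the thrombospondin gene, was at −0.70 over all arrays and −0.37 without replicate 3 (limma adjusted p = 0.050), and neither gene was called.

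Of 7 subunits of AP-1, which shares enhancers with TEAD, 6 were tested. Of these, 0 were called over all arrays, with 3 at an unadjusted p under 0.05 in limma, all lower, where 8.45% of all genes were. Without leflunomide replicate 3, 4 of the 6 fell, where 9.94% of all genes did. FOS had signals of 88.1, 118 and 43.0 with leflunomide and 159, 196 and 141 with DMSO, and was at −1.09 ± 0.34 (SE, limma adjusted p = 0.19) over all arrays and −0.76 without that array (limma adjusted p = 0.0012). FOSB, JUN and JUND were the other 3 that fell there, at −0.78, −0.61 and −0.47, and were at −0.40, −0.79 and −0.40 over all arrays. FOSL1, a subunit linked to YAP in cancer cells, was at 0.13 over all arrays and 0.060 without that array, JUNB was at 0.069 and −0.13, and neither was called. With median scaling of the 5 arrays FOS, FOSB and JUN were called, at −0.81, −0.87 and −0.70 relative to all genes, and JUND, at −0.35, was not (limma adjusted p = 0.13).

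Genes of the actin-responsive factor SRF and its cofactor MRTF, a pathway that also reads cytoskeletal tension, were centred near 0. Of 20, 15 were tested, and the median was 0.0083 over all arrays and −0.010 without leflunomide replicate 3. Over all arrays 1 fell, the smooth muscle actin gene ACTA2, where 0.834% of all genes did. ACTA2 was at −2.51 ± 0.09 (SE, limma adjusted p = 0.00056), and at −2.45 without leflunomide replicate 3. Without that array TAGLN, the transgelin gene, fell too, at −0.63 (−0.43 over all arrays), and FHL1, a LIM domain gene, rose, at 0.40 (0.43 over all arrays). In that comparison 9.94% of all genes fell and 9.32% rose. Median scaling of those 5 arrays called TAGLN, at −0.59 relative to all genes, and not FHL1, at 0.34 (limma adjusted p = 0.78). TGFB1I1 and TPM2 were at 0.38 and −0.034 over all arrays and at 0.25 and −0.28 without it, and were not called. VCL and FHL2, of focal adhesions and of the LIM domain family, had signals of 392 to 1485 and 306 to 1265 with leflunomide and 1039 to 1321 and 2473 to 3079 with DMSO, but detection p-values mostly over 0.05 kept them out of the fit. Deposited detection p-values thus did not follow the signal in every row, which limits each statement that a gene was not above background.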

How the data were processed

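RNA of A375 cells was hybridised to Illumina bead arrays, 3 per treatment. The deposited intensity values are linear bead signals without normalization, per the file headers. GenomeStudio is the tool that the submitters' processing notes name. The deposited detection p-values, so named per the file headers, fell on ranks among a fixed number of controls for most rows, as Illumina's negative control beads give. No probe position is given, since the genome build and the probes' annotation were not among the sources used here.

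Signals were background-corrected in limma 3.58.1 (R 4.3.3) by normexp, with control parameters inferred from 32290 rows whose p-values were ranks among 759 controls (tolerance 0.001), given an offset of 16, quantile-normalized and put on the log2 scale. Symbols were updated through RefSeq, and 12345 genes with a detection p under 0.05 on at least 3 of 6 arrays were fitted with lmFit and eBayes. P-values were adjusted by Benjamini-Hochberg over all of them, and called means an adjusted p under 0.05. Fold changes include the offset, which understates dim genes. The fit was also run on simulated data, with the spread of the arrays other than leflunomide replicate 3. That run held no array that stands apart, so it cannot tell how the fit behaves with one.

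A second deposited table of 48803 unnamed probes holds intensity values that, in matched rows, equal the first file's times 1 factor per array. It matched 31575 of 38275 rows to a single probe within 1e-05 (natural log), 8 of the 10 genes among them, and served as an alternative. Its direction and scale follow from that match, and whether anything else was done to it is unknown.

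The genes and lists were chosen with earlier results of these data known. All 10 genes are named, then YAP1, WWTR1, TEAD1 to TEAD4, LATS1, AMOT and AMOTL1, up to 4 genes of each list by absolute change in either fit, and the 3 genes closest to CYR61 and to CTGF. Other genes named were chosen after their values were seen. Some genes that these rules pick are not reported here, and list counts include them. Alternatives were other backgrounds, offsets, scalings, filters, variance models and a replicate block, and each array left out. Depth is not defined for arrays.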

Additional observations from a re-analysis of the deposited data

How the results depend on the processing

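Over all arrays 132 genes were called. The count was 2378 without leflunomide replicate 3 and 3 to 5 when any other array was left out, so the range over arrays left out was 3 to 2378. It was 0 with median scaling (limma, 1675 at an unadjusted p under 0.05), 4 with the replicate block and 2549 with array quality weights. Chosen after seeing the data, leaving out replicate 3 with median scaling gave 737 (31 higher and 706 lower, against 1151 and 1227 under quantile normalization of those arrays) and leaving it out with no background correction gave 2147. The count of YAP target genes called was 0, and 0 to 2 over arrays left out. It was 3 with array quality weights (CYR61, ANKRD1 and FOXF2), 1 without replicate 3 under median scaling (CYR61) and 2 without it and without background correction. The other 9 planned settings, the replicate block among them, called 0. Whether the numbers pair the samples could not be told from 3 arrays per treatment. Same-numbered arrays had correlations of deviations of −0.0086, 0.21 and 0.22 for replicates 1, 2 and 3. Leflunomide replicates 1 and 2 correlated best with DMSO replicate 2 (0.18 and 0.21), and leflunomide replicate 3 with DMSO replicate 3. The median of the 9 genes moved past the spread between arrays with median scaling alone, to −0.63.

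Median scaling moved all genes, to a median of −0.53 with all arrays and −0.19 without replicate 3, so a sign turned there need not be a turn relative to other genes. Single genes were on the other side of 0 as follows. LATS2 was at 0.043 with the second table's values. FJX1 was at −0.63 with median scaling (−0.10 relative to all genes), −0.073 with the second table and −0.23 without replicate 3 under median scaling. CRIM1 was at −0.32 with median scaling and −0.061 with it and without replicate 3, which is 0.21 and 0.13 relative to all genes. NT5E was at 0.082 without replicate 3 (−0.37 to 0.082 over arrays left out), 0.039 with array weights and 0.073 without replicate 3 and background correction. FOXF2 was at −0.13 and −0.22 without leflunomide replicates 1 and 2 (−0.22 to 0.44 over arrays left out), and at −0.43 with median scaling, 0.093 relative to all genes. None of the turned values was called, and the cause was not tested. CYR61, CTGF, ANKRD1 and F3 stayed below 0 in every alternative that gave a value, and the second table gave none for CTGF and F3. Signal near background limits LATS2, F3 and AMOTL2.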
